A study of Mus musculus with 6 samples.

Results

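The E2F transcription factors E2f1 to E2f8 and their dimerisation partners Tfdp1 and Tfdp2, which encode the DP proteins, were followed in mouse embryonic stem cells 24 h after Dicer-deficient cells were given mimics of microRNAs they lack. The 10 genes were taken by symbol from the platform's probe annotation. They had 21 probe sets that list no other gene, of 45101 probe sets on the array, and they are 10 of 18193 genes with such a probe set. Of the 21 probe sets, 19 had a mean log2 intensity of at least 4 over the 6 arrays and were tested, and each of the 10 genes kept at least 1. The other 2, one of E2f1 and one of E2f8, stayed below that level.

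All 6 samples came from 1 undifferentiated line, Dicer -/- 27H10 (27H in the sample titles), so the controls lacked Dicer too, the enzyme that cuts microRNA precursors. In 3 samples the cells had been transfected with mimics of the miR-290 cluster. In the 3 control samples they had been transfected with siRL, an siRNA directed at Renilla luciferase. Nothing in the labels says whether the 3 replicates of a group were separate cultures, so the p-values rest on a spread between samples that may be technical only. The values are linear intensities on 1 Affymetrix array per sample. Array medians lay between 41.7 and 44.9, and arrays correlated at 0.963 to 0.969 within groups and 0.959 to 0.964 between groups on the log2 scale.

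E2F factors bind DNA as heterodimers with a DP protein and control genes needed for entry into S phase and for DNA synthesis. Retinoblastoma pocket proteins bind to them and turn them into repressors until cyclin-dependent kinases phosphorylate the pocket protein. Embryonic stem cells have a short G1 phase, keep their pocket proteins largely phosphorylated, and express many E2F target genes through most of the cycle. The microRNAs of the miR-290 cluster, abundant in embryonic stem cells with Dicer, are known for promoting the step into S phase, and one of their reported targets in mouse is Rbl2, a pocket protein gene.

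The labels name the cluster and not which of its microRNAs were supplied as mimics. The 3′ arms of 6 of its mature microRNAs are printed here because they show the seeds a cluster mimic could carry. They come from RefSeq (GRCm38.p6, chr7:3218674-3220837, plus strand), are written 5′ to 3′, and capitals mark the seed, bases 2 to 8. The first 3 share the seed AAGUGCU, miR-290a-3p has AAGUGCC and miR-291b-3p has AAGUGCA. The seed of miR-293-3p is GUGCCGC. Matches to these seeds in the E2F transcripts were not analysed here.
mmu-miR-291a-3p: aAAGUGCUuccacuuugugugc
mmu-miR-294-3p: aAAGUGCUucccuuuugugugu
mmu-miR-295-3p: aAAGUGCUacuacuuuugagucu
mmu-miR-290a-3p: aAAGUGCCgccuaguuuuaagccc
mmu-miR-291b-3p: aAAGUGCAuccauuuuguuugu
mmu-miR-293-3p: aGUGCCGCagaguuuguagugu

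At an adjusted p under 0.05, 0 of the 19 E2F and DP probe sets were called lower with the mimics and 0 higher (limma with a constant prior variance, Benjamini-Hochberg adjustment over all 29167 probe sets tested). Over all probe sets the same rule called 0.946% lower and 0.343% higher. At an unadjusted p under 0.05, 3 of the 19 were lower and 1 was higher, against 11.6% and 8.49% of all probe sets. The same 3, of E2f2, E2f3 and E2f7, were called lower when limma's prior variance was allowed to follow the signal level with robust estimation (called the robust prior from here on), and 0 were called higher. That prior called 6.56% of all probe sets lower and 4.73% higher. The 4 probe sets were also the only ones of the 19 whose groups did not overlap, 3 lower with the mimics and 1, of E2f4, higher. Groups did not overlap in 15.5% of all probe sets with the mimics lower and in 13.8% with the mimics higher. With 19 probe sets these counts are few, and they are not read as a property of the family. Taking the brightest probe set of each gene, the median log2 fold change was 0.00 over the 10 genes and -0.01 over all 13815 genes tested, with 5 of 10 and 7188 of 13815 below 0. Calls that rest on the robust prior alone are named as such.

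**Figure D1:**
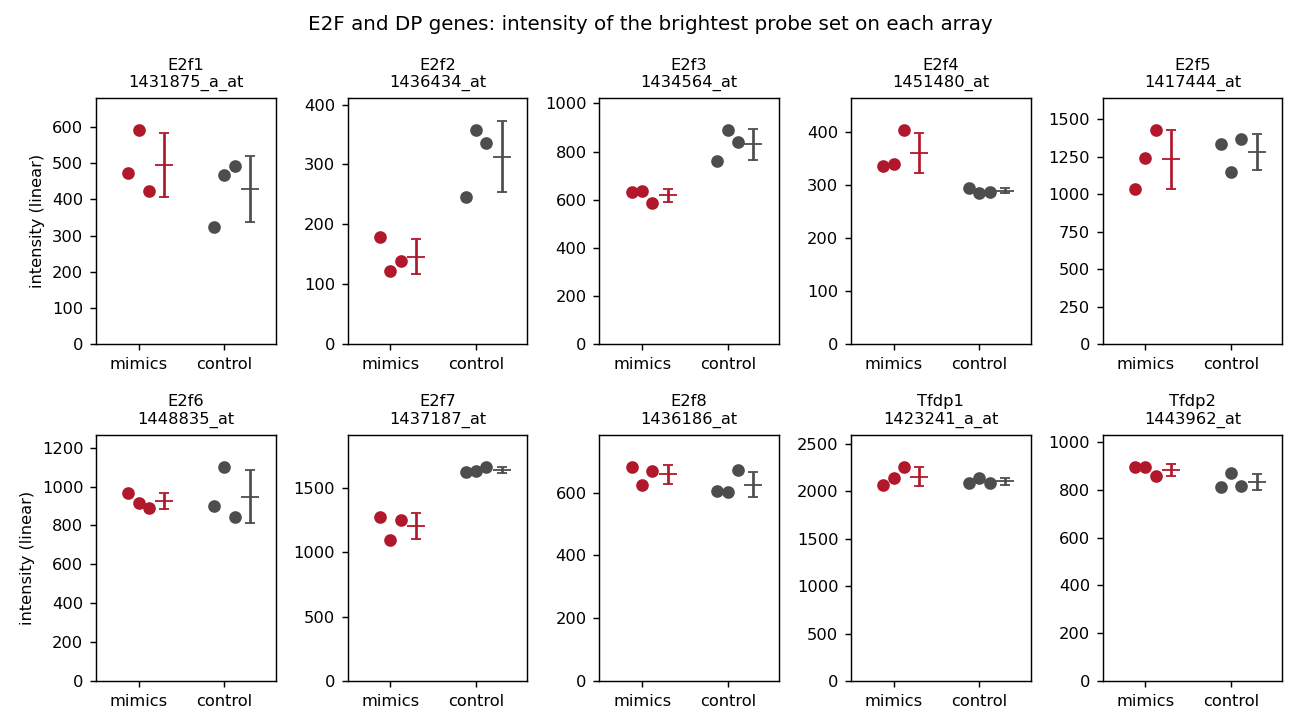
Linear intensity of the brightest probe set of each E2F and DP gene, with 1 point per array and the mean ± SD of 3 arrays beside the points, mimics on the left of each panel and control siRNA on the right. The groups are apart in E2f2 (122 to 178 with the mimics, 246 to 357 in the controls), E2f3, E2f7 and E2f4, and overlap in the other 6 genes.

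E2f1, E2f2 and E2f3 are the activators of the family and bind the pocket protein Rb1. E2f2 had the largest difference among the brightest probe sets. Its intensity (1436434_at) was 178, 122 and 139 in mimic samples 1 to 3, against 246, 357 and 335 in control samples 1 to 3. Every mimic array lay below every control array. The means were 146 ± 29.0 with the mimics and 313 ± 58.9 in the controls (SD, n = 3 each). The log2 fold change was -1.10 ± 0.21 (SE, 95% interval -1.63 to -0.56), which is 2.14-fold lower with the mimics, with an adjusted p of 0.0758 under the constant prior and 0.00333 under the robust prior. RNA was taken from whole cultures, so less RNA per cell and fewer cells that express a gene cannot be told apart, here or for any other gene. The dimmer E2f2 probe set (1455790_at) had 55.0, 84.9 and 134 in the mimic samples against 157, 82.3 and 138 in the controls. Its groups overlapped, and its log2 fold change was -0.50 (95% interval -1.54 to 0.53) with an adjusted p of 0.545. The fold changes of the 2 probe sets differed by 0.59, with p = 0.4 in an exact permutation test over arrays (2-sided; 3 against 3 arrays cannot give less than 0.1).

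E2f3, which in mouse has separate starts for a long and a short protein, was next among the activators. Its brightest probe set (1434564_at) had 634, 636 and 588 in the mimic samples against 762, 889 and 839 in the controls. The groups did not overlap, and the 3 mimic arrays lay close together. The means were 619 ± 27.0 with the mimics and 830.0 ± 64.0 in the controls (SD, n = 3 each). The log2 fold change was -0.42 ± 0.09 (SE, 95% interval -0.65 to -0.19), 1.34-fold lower with the mimics, with an adjusted p of 0.0886 under the constant prior and 0.0103 under the robust prior. The second E2f3 probe set (1427462_at) ran the other way, with 149, 118 and 262 in the mimic samples against 163, 89.7 and 133 in the controls. Its groups overlapped, mimic array 3 was far above the rest, and the log2 fold change was 0.42 (95% interval -0.53 to 1.36, adjusted p 0.585). The difference of 0.84 between the 2 probe sets had p = 0.2 in the exact permutation test, and averaging them left a log2 fold change of -0.00 for E2f3 (adjusted p 0.994). A statement that E2f3 was lower therefore rests on 1 of its 2 probe sets. Which of the transcripts each probe set reads was not analysed here.

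E2f1, the activator also known for inducing apoptosis genes, did not differ beyond its spread. Its brightest probe set (1431875_a_at) had 472, 592 and 422 with the mimics against 324, 469 and 493 in the controls. The log2 fold change was 0.22 (95% interval -0.33 to 0.77, adjusted p 0.619). The second (1417878_at) had 319, 422 and 301 against 373, 428 and 305, with a log2 fold change of -0.09 (95% interval -0.57 to 0.39, adjusted p 0.83). The groups overlapped in both, and the 2 probe sets pointed in opposite directions by 0.31 (exact permutation p = 0.4). The intervals leave room for a change of E2f1 in either direction. The untested E2f1 probe set (1447840_x_at) had intensities between 3.07 and 39.5.

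E2f4, E2f5 and E2f6 act mainly as repressors. E2f4, which binds the pocket proteins Rbl1 and Rbl2 in resting and early G1 cells, was the only member whose mimic arrays all lay above the controls. Its 1 probe set (1451480_at) had 335, 340.2 and 403 with the mimics against 295, 286 and 287 in the controls. The 3 controls lay within a narrow band, and mimic array 3 was the highest. The means were 359.6 ± 37.9 with the mimics and 289 ± 5.05 in the controls (SD, n = 3 each). The log2 fold change was 0.31 ± 0.098 (SE, 95% interval 0.06 to 0.56), 1.24-fold higher with the mimics, with an adjusted p of 0.175 under the constant prior and 0.128 under the robust prior. E2f4 passed neither.

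E2f5, the other partner of Rbl1 and Rbl2, showed no difference beyond its spread in any of its 3 probe sets. The brightest (1417444_at) had 1034, 1239.9 and 1429 with the mimics against 1335, 1148 and 1371 in the controls, and the log2 fold change was -0.07 (95% interval -0.44 to 0.31, adjusted p 0.84). The second (1460207_s_at), of a type that can match transcripts of other genes, had a log2 fold change of -0.20 (95% interval -0.50 to 0.09, adjusted p 0.398). The dimmest (1447625_at) had a log2 fold change of 0.52 (95% interval -0.63 to 1.66, adjusted p 0.572). E2f6, which lacks the pocket protein binding region and represses germline genes as a subunit of the Polycomb complex PRC1.6, had 969, 917 and 892 (1448835_at) with the mimics against 898, 1102 and 843 in the controls. Control array 2 was the highest and control array 3 the lowest, so the mimic values lay inside the control range, and the log2 fold change was -0.02 (95% interval -0.34 to 0.29, adjusted p 0.932). Its second probe set (1437914_at) was dim, with 6.68 to 86.9 over the 6 arrays, and its interval of -3.09 to 2.61 says little.

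E2f7 and E2f8 are the atypical members. They bind DNA without a DP partner, repress E2F target genes late in S phase, and are E2F targets themselves. E2f7 (1437187_at, its 1 probe set) had 1274, 1092 and 1248 with the mimics against 1622, 1633 and 1664 in the controls. Every mimic array lay below every control, and the 3 controls were within a narrow band. The means were 1205 ± 98.1 with the mimics and 1639.5 ± 22.1 in the controls (SD, n = 3 each). The log2 fold change was -0.45 ± 0.088 (SE, 95% interval -0.67 to -0.23), 1.36-fold lower with the mimics, with an adjusted p of 0.0778 under the constant prior and 0.00279 under the robust prior.

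The 2 groups were closer in E2f8. Its brightest probe set (1436186_at) had 683, 624 and 669 with the mimics against 604, 601 and 671 in the controls. The groups overlapped, and the log2 fold change was 0.08 (95% interval -0.14 to 0.29, adjusted p 0.658). The mean of its probe sets, one of them dim, gave 0.49 (adjusted p 0.716). The whole interval of the brightest E2f8 probe set lies above that of E2f7, though the difference between the genes was not tested. The other E2f8 probe set (1444319_at) was below the filter, with intensities between 2.13 and 34.7.

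The brightest probe sets of the DP partners had the narrowest intervals of the 10 genes. Tfdp1 (1423241_a_at), the main DP subunit in most cells, had 2065, 2139 and 2261 with the mimics against 2087, 2146 and 2087 in the controls. The log2 fold change was 0.03 ± 0.072 (SE, 95% interval -0.15 to 0.21, adjusted p 0.839), and mimic array 1 was the lowest while mimic array 3 was the highest of the 6. The brightest of 4 Tfdp2 probe sets (1443962_at) had 898, 897 and 857 with the mimics against 813, 872 and 819 in the controls, with a log2 fold change of 0.08 (95% interval -0.10 to 0.26, adjusted p 0.563). Tfdp2 encodes the second DP subunit. Another pair of its probe sets (1437174_at and 1435344_at) had log2 fold changes of 0.04 (95% interval -0.20 to 0.28, adjusted p 0.852) and 0.12 (95% interval -0.08 to 0.32, adjusted p 0.463). The dimmest (1445873_at) had 85.0, 18.6 and 57.0 with the mimics against 97.7, 59.7 and 83.1 in the controls, a log2 fold change of -0.81 (95% interval -2.33 to 0.71, adjusted p 0.508) that differed from the brightest by 0.89 (exact permutation p = 0.2). Over the family, 9 such comparisons between probe sets of 1 gene were made, with raw p from 0.1 to 1 and adjusted p from 0.6 upward. The exact permutation test cannot give a p under 0.1 with so few arrays, so none of the 9 could have passed. These p-values therefore do not show whether the probe sets of a gene agree.

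**Figure D2:**
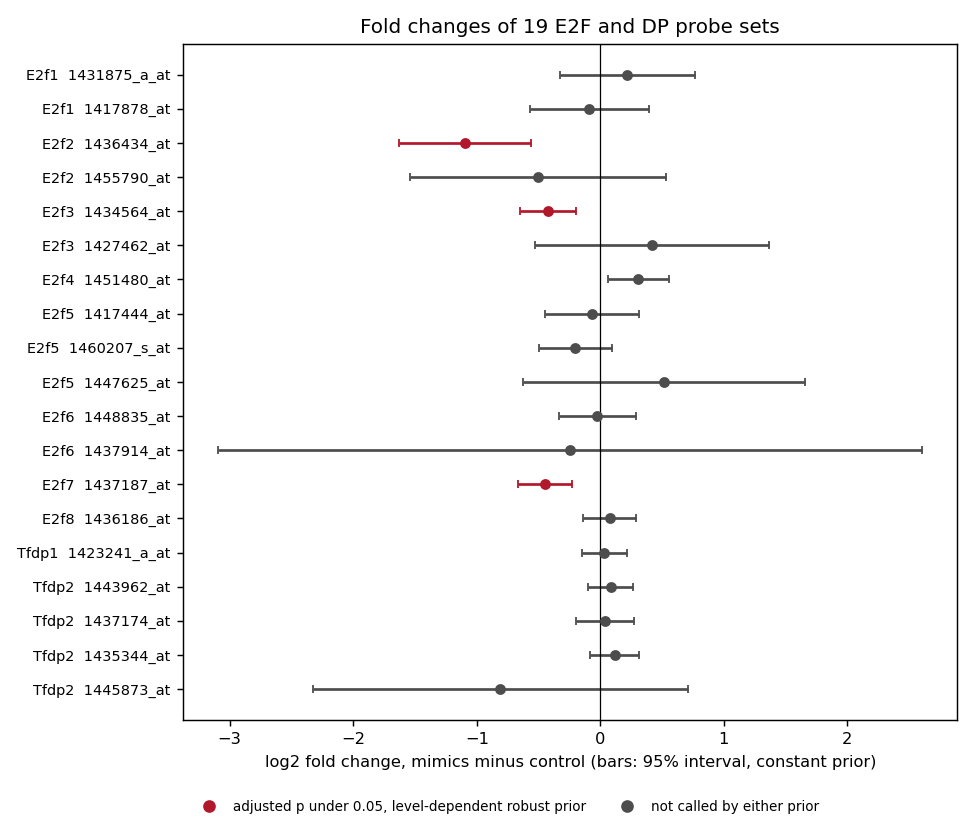
Log2 fold change (mimics minus control siRNA, horizontal axis) with its 95% interval for the 19 tested E2F and DP probe sets, in red where the robust prior gave an adjusted p under 0.05. The 3 red points, of E2f2, E2f3 and E2f7, are at -1.10, -0.42 and -0.45, and E2f4, at 0.31, is the 1 other interval that does not reach 0.

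The promoters of E2F genes are known to be bound by E2F factors, so the windows at their starts were searched for 4 E2F motif words, TTTCCCGC, TTTCGCGC, TTTGGCGC and TTTGCCGC, on both strands. The windows run from 250 bases before a start to 50 after it and come from RefSeq (GRCm38.p6). They were at hand for 8 of the 10 genes, in 12 windows, and E2f4 and E2f5 had none. A word was present for 4 of the 8 genes (50%), against 2.6% of the 27025 genes with a window. The 3 windows of E2f2, E2f3 and E2f7 that hold one are shown because these genes are called lower under the robust prior. Each is written 5′ to 3′ on the strand of the gene, and capitals mark the motif.
E2f2 chr4:136172024-136172323 (+): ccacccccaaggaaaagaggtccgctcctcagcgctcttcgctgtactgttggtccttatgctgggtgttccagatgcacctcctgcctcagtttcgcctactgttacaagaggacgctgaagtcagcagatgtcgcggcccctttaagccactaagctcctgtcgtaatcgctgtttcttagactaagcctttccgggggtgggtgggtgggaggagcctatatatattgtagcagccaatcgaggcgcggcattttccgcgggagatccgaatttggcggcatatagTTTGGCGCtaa
E2f3 chr13:29986014-29986313 (-): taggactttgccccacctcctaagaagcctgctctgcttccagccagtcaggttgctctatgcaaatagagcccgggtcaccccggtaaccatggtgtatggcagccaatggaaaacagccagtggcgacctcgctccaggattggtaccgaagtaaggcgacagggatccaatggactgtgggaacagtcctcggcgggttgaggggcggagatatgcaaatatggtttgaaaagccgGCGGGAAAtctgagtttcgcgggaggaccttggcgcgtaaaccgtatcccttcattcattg
E2f7 chr10:110745189-110745488 (+): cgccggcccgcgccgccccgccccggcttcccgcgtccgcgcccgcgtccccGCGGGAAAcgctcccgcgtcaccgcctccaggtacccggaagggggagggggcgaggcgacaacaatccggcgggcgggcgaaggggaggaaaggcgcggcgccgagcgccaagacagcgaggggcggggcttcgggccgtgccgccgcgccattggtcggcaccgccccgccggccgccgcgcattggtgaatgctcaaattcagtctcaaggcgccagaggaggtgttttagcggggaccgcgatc

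In E2f2 the word TTTGGCGC began 39 bases after the start. In E2f3 and E2f7 the word was TTTCCCGC read on the other strand, so that it appears as its reverse complement, 11 and 198 bases before the start. The fourth gene was Tfdp1, whose intensity did not differ, with TTTCGCGC on the other strand 43 bases before one start and 96 before another. The windows of E2f1, E2f6, E2f8 and Tfdp2, and second windows of E2f2 and E2f3, held none of these words. E2f1 had 1 window, and whether it lies at the main start of the gene was not checked. Sequence outside the windows was not searched, so a word elsewhere at these genes would be missed. Among genes listed as E2F targets of DNA synthesis 11 of 25 (44%) held a word, among those of cell cycle control and chromatin 9 of 16 (56.2%), and among those of apoptosis 0 of 6. A word in a window is a match of letters, and binding was not measured.

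The genes that act on E2F were examined next, with the brightest probe set standing for each gene. Of 100 genes tested in 10 lists around E2F, 2 fell with the mimics at an adjusted p under 0.05 (limma, constant prior) and 0 rose. Over all genes the shares were 1.38% lower and 0.456% higher. At an unadjusted p under 0.05 the 100 genes held 19 lower and 15 higher, against 14.5% and 9.99% of all genes. Both genes that fell restrain E2F. Rbl2, the pocket protein that holds E2f4 and E2f5 in resting cells, had 117, 64.7 and 101 with the mimics against 396, 348 and 307 in the controls. The groups were far apart, and the log2 fold change was -1.93 ± 0.25 (SE) with an adjusted p of 0.0453. Its second probe set had a log2 fold change of -1.30 and an adjusted p of 0.0876. Cdkn1a, the p21 inhibitor of cyclin-dependent kinases, averaged 2678 ± 37.6 with the mimics and 4839.6 ± 212 in the controls (SD, n = 3 each), a log2 fold change of -0.85 ± 0.071 (SE) with an adjusted p of 0.0287. The second Cdkn1a probe set also passed, with a log2 fold change of -0.70 and an adjusted p of 0.0416 under the constant prior. Neither gene passed with no filter on low values, or when any 1 array was left out under the constant prior. In those settings 0 probe sets of the array passed with no filter, and at most 1 with an array left out. Under the robust prior the adjusted p was 0.000242 for Rbl2 and 6.06e-06 for Cdkn1a. Both were called in all 6 fits with 1 array left out under that prior.

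All 3 pocket protein genes had lower means with the mimics, and 1 of them, Rbl2, passed. Rb1, which binds the activator E2Fs, had 576, 493 and 592 with the mimics against 812, 701 and 747 in the controls. The groups did not overlap, and the log2 fold change was -0.45 with an adjusted p of 0.112 under the constant prior and 0.014 under the robust prior. Rbl1, itself an E2F target, had 412, 419 and 465 against 535, 504 and 581, a log2 fold change of -0.32 with an adjusted p of 0.153 under the constant prior and 0.0654 under the robust prior. For Rbl1 the mean of its probe sets ran the other way, at 0.27. That mean takes in an untested probe set (1454293_at) below the filter, with intensities of 0.91 to 20.9. The other tested Rbl1 probe sets (1425166_at and 1432604_at) had log2 fold changes of -0.27 and 0.37. Of 7 genes for kinase inhibitors, 1 fell, Cdkn1a, and the list's median was -0.41, against -0.01 over all genes. Cdkn1b, the p27 inhibitor, had a log2 fold change of -0.41 with an adjusted p of 0.157 under the constant prior and 0.0217 under the robust prior.

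None of the 8 MuvB and MYB genes passed under the constant prior with its brightest probe set. These subunits join pocket proteins and E2f4 in the repressive DREAM complex, or the transcription factor B-Myb in an activating one. Mybl2, which encodes B-Myb and is a known E2F target, averaged 3190.3 ± 133 with the mimics and 2420.4 ± 47.1 in the controls (SD, n = 3 each), a log2 fold change of 0.40 with an adjusted p of 0.0701 under the constant prior and 0.00111 under the robust prior. Its second probe set passed, with a log2 fold change of 0.99 and an adjusted p of 0.0422 under the constant prior, and so did the mean of both, at 0.69 (adjusted p 0.0396). Rbbp4, a histone-binding subunit, had a log2 fold change of 0.00 (adjusted p 0.996), and 0.32 as the mean of its probe sets (adjusted p 0.136). None of the 8 G1 cyclin and kinase genes passed either, with a median of -0.04. The robust prior called 2 of them lower and 2 higher, against 9.43% and 6.2% of all genes. Ccne1, picked out after its values were seen, was 1 of those called lower, at -0.37 (adjusted p 0.00723 under the robust prior). Its second probe set went the other way, at 0.39 (adjusted p 0.00254 under the robust prior), so the direction of Ccne1 is not settled. Cdk4, a kinase that phosphorylates pocket proteins, had a log2 fold change of 0.22 with an adjusted p of 0.199, and 0.0188 under the robust prior. Ccnd3, a cyclin partner of Cdk4, had 0.08 (adjusted p 0.567). Among 8 genes for E2F turnover and cofactors none passed, none had an unadjusted p under 0.05 in limma, and none was called under the robust prior. Ccna2, the cyclin of the kinase that ends E2F activity in S phase, had a log2 fold change of -0.17 (adjusted p 0.294), and Hcfc1, a cofactor, -0.01 (adjusted p 0.975).

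The known targets of E2F lay on both sides of the array's median. Of 28 tested targets in DNA synthesis, none passed under the constant prior, 5 had an unadjusted p under 0.05 with higher values under the mimics, and 0 with lower values. Their median log2 fold change was 0.13, with 23 of 28 above 0, against -0.01 and 6627 of 13815 over all genes. The robust prior called 7 of the 28 higher and 0 lower, against 6.2% and 9.43% of all genes. Those shares, here and for the lists below, are not matched for signal level, which that prior follows. The 8 pluripotency markers described below, also intense, had a median of 0.10 with 6 of 8 above 0, and the robust prior called 1 of them higher. The most intense were Pcna, the sliding clamp of the replication fork, with 24953 ± 1038 under the mimics and 22679.5 ± 1522 in the controls, and Mcm7, a subunit of the replicative helicase, with 17299 ± 434 and 15838 ± 1094 in the same order (SD, n = 3 each). Their log2 fold changes were 0.14 (adjusted p 0.424) and 0.13 (adjusted p 0.442). Of the 7 called under the robust prior, Orc1 of the origin recognition complex, at 0.49, and Dut, which removes dUTP, at 0.40, had the largest fold changes; both were picked out after their values were seen. The second probe set of Orc1 had a log2 fold change of -0.018 (adjusted p 0.953), and that of Dut 0.26 (adjusted p 0.346). The list median was 0.09 after quantile normalization and 0.10 after median centring, against -0.002 and -0.04 over all genes. Median centring lowers every fold change by the same 0.03, so its value follows from the 0.13 and is no separate check.

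Of 18 targets in cell cycle control and chromatin, none passed under the constant prior, and the robust prior called 4 higher and 1 lower, against 6.2% and 9.43% of all genes. Their median was 0.08, with 12 of 18 above 0, against -0.01 over all genes. Msh6, a mismatch repair gene, had a log2 fold change of 0.05 (adjusted p 0.72) and Cdk1, the mitotic kinase, -0.05 (adjusted p 0.753). The 6 tested targets in apoptosis lay on the other side. None passed under the constant prior, 3 of the 6 had an unadjusted p under 0.05 with lower values under the mimics, against 14.5% of all genes, and 1 was called lower under the robust prior. The median was -0.26, with 5 of 6 below 0. Bcl2l11, which encodes the death protein Bim, had a log2 fold change of -0.26 with an adjusted p of 0.158, and 0.0115 under the robust prior. Apaf1, the core of the apoptosome, had -0.26 (adjusted p 0.279).

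Among 9 tested partners of E2f6 in PRC1.6, none passed under the constant prior, and the robust prior called 2 lower and 1 higher, against 9.43% and 6.2% of all genes. Rnf2, the ubiquitin ligase subunit, had a log2 fold change of -0.25 (adjusted p 0.15, and 0.00902 under the robust prior), but -0.027 as the mean of its probe sets (adjusted p 0.965). Wdr5 had 0.30 (adjusted p 0.125, and 0.00713). Of 5 tested germline genes that E2f6 is known to repress, none passed under the constant prior and the median was -0.29. The most intense were Ddx4, an RNA helicase of germ cells, with -0.34 (adjusted p 0.218, and 0.0435 under the robust prior), and Slc25a31, a carrier of sperm mitochondria, with -0.29 (adjusted p 0.229). Over the 10 lists, with each gene counted once, the robust prior called 11 of 100 genes lower and 15 higher, against 9.43% and 6.2% of all genes.

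**Figure D3:**
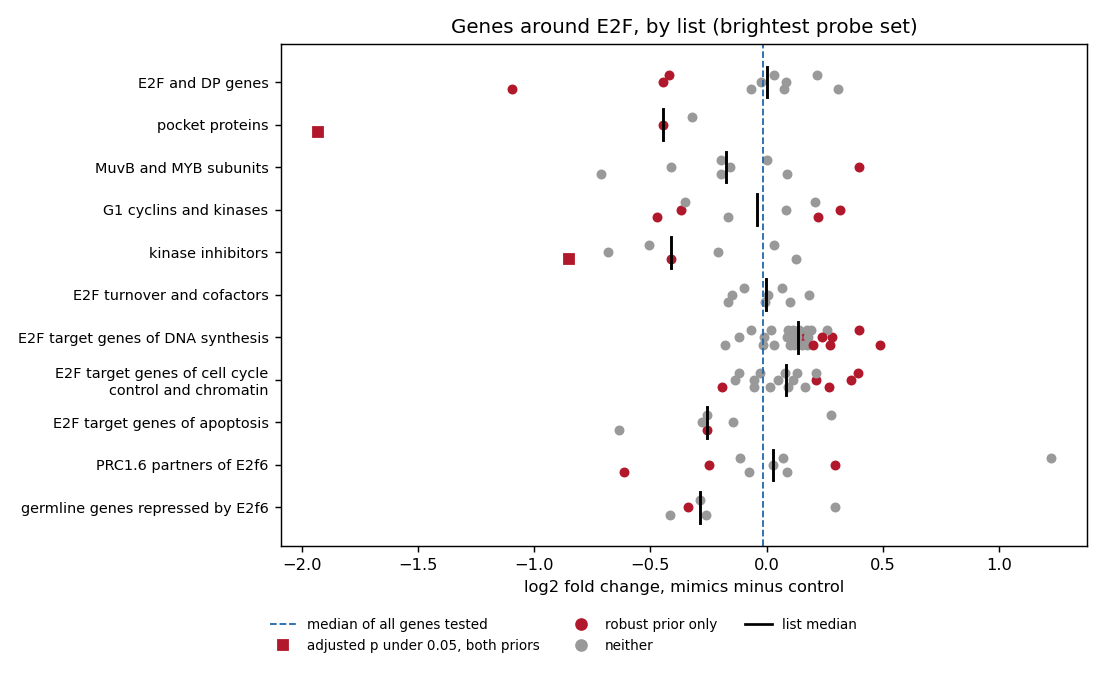
Log2 fold change (mimics minus control siRNA, horizontal axis) of each tested gene in the E2F and DP family and in 10 lists around it, as squares where both priors gave an adjusted p under 0.05, red circles where the robust prior alone did, and grey circles elsewhere, with a black bar at each list's median and a dashed line at the median of all genes. The 2 squares are Rbl2, at -1.93, and Cdkn1a, at -0.85, and the DNA synthesis targets lie mostly above 0 with a median of 0.13.

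The genes whose array-to-array pattern was most like that of E2f2 were sought with the root mean square difference between log2 values, each gene first centred on its own mean over the 6 arrays. The 5 closest of the genes tested were Tdrd7, Slc25a24, Ifit1, Sfxn3 and Slc25a40, with differences between 0.119 and 0.156 on the log2 scale. Because E2f2 was 2.14-fold lower with the mimics, the measure favours genes of a like fold change, and theirs lay between -1.33 and -0.94. Tdrd7 and Slc25a40 passed under the constant prior, with adjusted p of 0.0457 and 0.0432.

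The label of the cells was set against marker genes. All 8 pluripotency markers were measured and none passed under the constant prior, while Esrrb, at a log2 fold change of 0.23, was called higher under the robust prior with an adjusted p of 0.0158. Their summed intensity was 110389 to 115715 with the mimics and 102679 to 111412 in the controls. Of 10 fibroblast and feeder markers, Col1a1, Col1a2, Col3a1 and Postn were below the filter, with no value above 32.2. The other 6 were above it, the most intense being Acta2, at 150 to 229 over the 6 arrays, and Thy1, at 153 to 203. The summed intensity of all 10 was 456 to 604 with the mimics and 632 to 729.55 in the controls, so the groups did not overlap. None of the 6 tested passed under the constant prior, while S100a4, at a log2 fold change of -1.29, was called under the robust prior with an adjusted p of 0.0245. These sums ran in the same direction as E2f2, E2f3, E2f7 and Rbl2, and their part in those results was not tested. Of 12 markers of differentiated lineages 11 had a probe set, with sums of 1037 to 1218 with the mimics and 1123 to 1347 in the controls. Sox1 of the neural lineage fell among these, with 36.9 ± 3.98 with the mimics and 71.6 ± 8.01 in the controls (SD, n = 3 each), with an adjusted p of 0.0458 under the constant prior, but 0.0569 under the robust prior, where it was not called. Dicer1 had 1026, 1143 and 1090.4 with the mimics against 1129, 1177 and 1137 in the controls; all 6 samples carry the deletion, and where the probe set lies relative to it was not analysed here, so this checks nothing.

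How far the 4 differing E2F genes depended on the settings was followed through 20 alternatives. E2f2, E2f3 and E2f7 each passed in 8 of them: with the robust prior, with each of 6 arrays left out under that prior, and with a filter at a mean log2 of 6. Under the robust prior with 1 array left out, the adjusted p was 0.00461 to 0.0213 for E2f2, 0.0156 to 0.0421 for E2f3 and 0.00775 to 0.0156 for E2f7. They passed in none of the others, and in those with an array left out under the constant prior hardly any probe set of the whole array passed, 0 lower and at most 1 higher. E2f4 passed in none of the 20, with adjusted p from 0.0756 to 0.393.

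**Figure D4:**
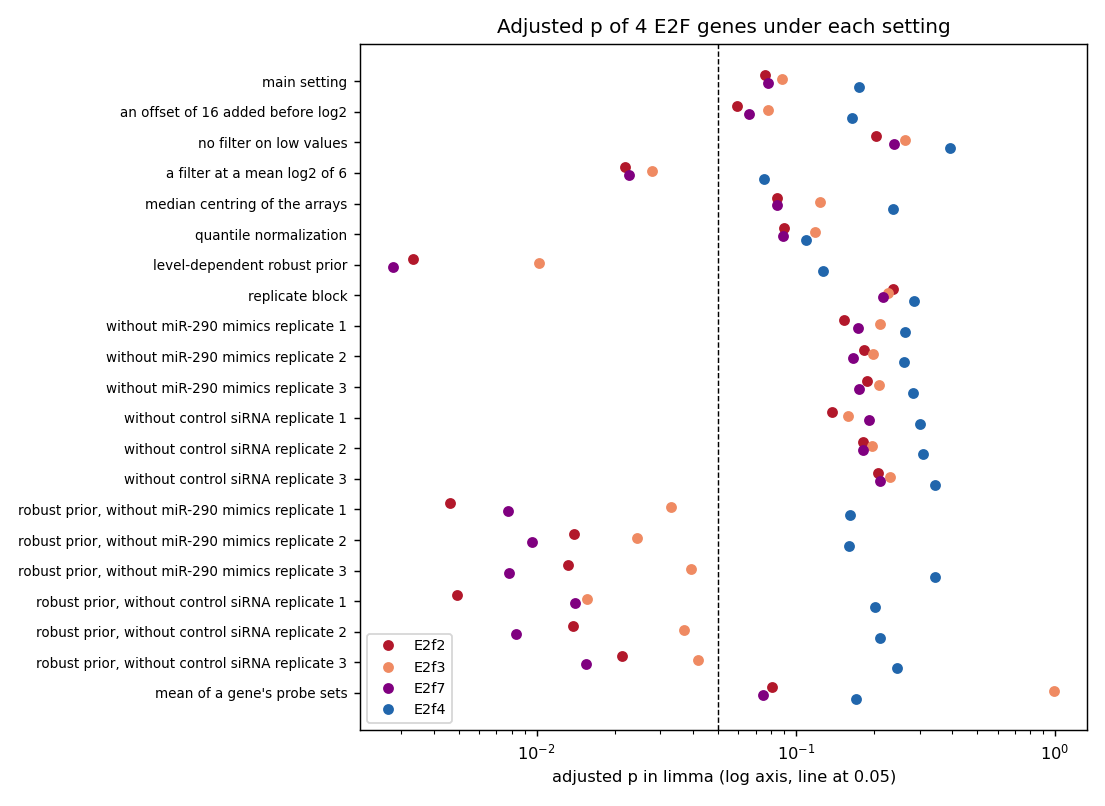
Adjusted p in limma (horizontal log axis) of E2f2, E2f3, E2f7 and E2f4 under the reported setting and each alternative, with a dashed line at 0.05. E2f2, E2f3 and E2f7 are left of the line in the same 8 alternatives, and E2f4 in none, its lowest value being 0.0756.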

How the data were processed

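RNA of 6 samples was hybridised as biotinylated cRNA to Affymetrix arrays, per the labels' protocols, with the group and the replicate of each sample read off its title. GCRMA, which normally returns log2 values, is the tool in the submitters' processing notes. The deposited values are linear intensities from 0.057 to 46765, with a mean of 500.004 on every array once the extreme 2% at each end are left out, as global scaling gives. Which software the authors used to make the intensity values cannot be settled here, and their log2 transformation was made here, with no offset. No detection calls were used, so the dimmest values may be background, and the 3 arrays a group limit the precision.

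Probe sets were named from the platform annotation where it gives 1 symbol (34958 of 45101). After leaving out 64 control probe sets and 15870 with a mean log2 under 4, 29167 probe sets entered a 2-sided fit without covariates (lmFit and eBayes of limma 3.58.1, R 4.3.3, constant prior) on all 6 arrays, adjusted by Benjamini-Hochberg with a threshold of 0.05; the script was tested on simulated data. Fold changes are mimics minus control on the log2 scale, and means and SDs are of linear intensity. A gene is represented by its probe set with the highest mean log2. Probe sets of a gene were compared by exact permutation.

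Alternatives were an offset of 16, no filter, a filter at 6, median centring, quantile normalization and a level-dependent robust prior. Others were a replicate block, leaving out each array under either prior, and averaging the probe sets of a gene, those under the filter included. Same-numbered samples did not deviate together (correlations -0.0061, 0.0123 and 0.0242), so the numbers were not taken as pairs.

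The members, gene lists and tests were chosen with earlier results of these data known. The text names all 10 members, Rb1, Rbl1 and Rbl2, from each list up to 4 called genes, ordered by size of change, plus the 2 of highest mean where fewer than 2 were called, and the 5 genes most like the member with the smallest p. Lists are described by counts and medians, with no test of the list.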

Additional observations from a re-analysis of the deposited data

How the results depend on the processing

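The count of E2F and DP probe sets called lower, 0 as reported, was 3 with the robust prior and 3 with a filter at a mean log2 of 6, ran between 0 and 3 when 1 array was left out under either prior, and was 0 in the other settings; the count called higher was 0 in every setting. Of the genes around E2F, 2 were called lower as reported; this was 11 with the robust prior, 5 with a filter at 6, 0 with no filter, 0 with the replicate block, 2 with the remaining settings and 0 to 10 with 1 array left out. The count called higher, 0 as reported, was 15 with the robust prior, 8 with a filter at 6, 1 with probe sets averaged per gene and 0 to 19 with 1 array left out. Over the whole array the calls numbered 276 lower and 100 higher as reported, 1914 and 1379 with the robust prior, 1522 and 851 with a filter at 6, 442 and 186 with an offset of 16, 170 and 37 with median centring, 166 and 84 over the 12957 genes with the mean of probe sets, and 0 and 0 with no filter, where limma gave 5645 probe sets an unadjusted p under 0.05. With the replicate block limma called 0 probe sets (5189 at an unadjusted p under 0.05, smallest adjusted p 0.208), with adjusted p of 0.236 for E2f2, 0.227 for E2f3, 0.217 for E2f7 and 0.208 for Rbl2; the fit spends degrees of freedom on the block, and 3 of 6 arrays correlated best with their own number. Rbl2 and Cdkn1a passed in none of the fits with an array left out under the constant prior, where at most 1 probe set of the array passed. Under the robust prior both passed in all 6 such fits. Of 620 alternative fold changes of single genes, 503 kept direction and call, 72 gained the call, 16 lost it and 29 changed sign. Averaging a gene's probe sets took in some below the filter, among them 1447840_x_at of E2f1, 1444319_at of E2f8 and 1454293_at of Rbl1. The tested E2f1 probe sets had log2 fold changes of 0.22 and -0.09. Averaging turned E2f1 to -0.23, E2f5 to 0.082, Tfdp2 to -0.14 and Rbl1 to 0.27. Without a change of sign it moved E2f3 to -0.0029, E2f6 to -0.13, E2f8 to 0.49, Rbbp4 to 0.32, Mybl2 to 0.69, which then passed, Apaf1 to -0.43, Ccna2 to -0.087, Ccnd3 to 0.046, Hcfc1 to -0.0019 and Rnf2 to -0.027. Quantile normalization turned E2f6 to 0.024 and Rbbp4 to -0.074, and median centring turned Rbbp4 to -0.029. With 1 array left out, values ran over -0.18 to 0.055 for E2f5, -0.10 to 0.089 for E2f6, -0.0032 to 0.062 for Tfdp1, -0.016 to 0.025 for Rbbp4, -0.032 to 0.027 for Hcfc1 and -0.093 to 0.0010 for Cdk1, all of them called in none of these settings. Except where the filter or the block sets how many probe sets or degrees of freedom enter, the cause of these shifts was not tested. Dim probe sets, such as the second ones of E2f2 and E2f6, limit what can be seen at intensities this low.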
